A study of Mus musculus with 4 samples.

Results

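The Hedgehog pathway was examined through 10 genes chosen by name: the receptors Ptch1 and Smo, the co-receptors Gas1, Cdon and Boc, the ligand-binding antagonist Hhip, the transcription factors Gli1, Gli2 and Gli3, and their inhibitor Sufu. All 10 were found among the 22690 genes of the table, and all 10 were among the 14480 genes with a mean normalized read count of at least 10, which were tested. RNA came from retinal cells of C57BL/6 mice at postnatal day 2, sorted for a 4N DNA content. This is the content of a cell that has copied its genome but not yet divided. Reads of rod, ganglion cell and microglial markers were also found in the sorted samples, as given below. One group of 2 libraries was GFP-negative and labelled wild type, and the other group of 2 was GFP-positive and labelled Casz1 cKO, a conditional knockout of a gene for a zinc finger transcription factor. The GFP sort thus differs together with the genotype, and the 2 cannot be told apart. The sources used here do not give the allele, the Cre driver, the source of GFP or the number of animals in a library, so p-values measure only the spread between libraries. The column names end in 1 of 2 tags, and each group has 1 library per tag, so the libraries are named A and B by these tags.

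Hedgehog proteins are secreted signals. In their absence the receptor Ptch1 holds the membrane protein Smo inactive, and Gli2 and Gli3 are processed in the primary cilium into repressors or held back by Sufu. Ligand binding to Ptch1, helped by Gas1, Cdon and Boc, releases Smo, and Gli activators then turn on targets that include Gli1, Ptch1 and Hhip themselves. Gas1, Cdon and Boc are known in other tissues to be lowered by the signal. In the mouse retina, ganglion cells release Shh, and dividing progenitors are the cells that respond.

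Reads in genes numbered 75832360 and 83753377 in wild type (tags A and B, in this order throughout), and 22326119 and 89473701 in cKO. cKO library A is therefore the shallowest, and it stood apart, with Pearson correlations across tested genes of 0.902 to 0.918 with the other 3 libraries, which correlated among themselves at 0.988 to 0.993. Of the 14480 tested genes 1074 had 0 reads in cKO library A, against 10 and 6 in wild type (A, B) and 4 in cKO library B. The part of these zeros in the correlations and in the differences below was not tested. Casz1 had 13162 and 11995 normalized reads in wild type (A, B) and 8687 and 10772 in cKO A and B, lower in both cKO libraries; reads outside a deleted part are included, so this does not measure the deletion. Of 10 retinal progenitor markers all were detected in every library and 9 had a higher mean in cKO, with summed counts of 192142 and 205453 in wild type and 224647 and 222563 in cKO. All 10 rod and photoreceptor precursor markers had a lower mean in cKO, with summed counts of 157606 and 140705 against 87856 and 106423. All 10 microglial markers did too, with summed counts of 19995 and 18708 against 1204 and 8444, and with Aif1 at 0 in cKO library A. All 7 retinal astrocyte markers had a lower mean in cKO, with summed counts of 2086 and 1420 against 1104 and 986 and S100b at 0 in cKO library A. Of 10 ganglion cell markers 6 had a higher mean in cKO, with summed counts of 8914 and 13211 against 9433 and 15227. Of 8 Mueller glia markers 6 had a higher mean in cKO, with summed counts of 208881 and 183877 against 302643 and 195018, and median log2 differences of 0.51 within tag A and 0.06 within tag B. Of 8 amacrine and horizontal cell markers 6 had a lower mean in cKO, with summed counts of 46880 and 40277 against 39346 and 40237. Of 7 tested endothelial and mural markers 4 had a lower mean in cKO. Their median log2 fold change was −0.37, with medians of −0.89 within tag A and −0.08 within tag B. The whole list of 9 had summed counts of 44475 and 39540 against 50399 and 40514. These sums mostly reflect its most abundant gene, which had a mean of 41799 over the 4 libraries. Pecam1, Cdh5, Tek and Tie1 were at 0 in cKO library A. The part of these cell types in the results below was not tested, and in bulk samples fewer cells of a type and less RNA per cell cannot be told apart.

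The 10 genes were expressed in all 4 libraries, and none passed the test for a difference between the groups. With limma on log2(normalized count + 1), adjusted p-values over the 14480 genes were 0.771 to 0.964 for the 10 genes. The threshold was 0.05. No gene of the table passed it (0.0% called), and 0 of the 10 had an unadjusted p under 0.05, where 274 of all tested genes did (1.89%). On the recovered reads edgeR and DESeq2 also called 0 of the 10. The median log2 fold change of cKO over wild type was 0.18 over the 10 genes and −0.03 over all tested genes, and 7 of the 10 had a higher mean in cKO. Within tag A the median was 0.29 and within tag B 0.09, and 7 and 8 of the 10 genes were higher in cKO there, where 46.8% and 49.3% of all tested genes were. In 3 of the 10 genes, Gas1, Gli2 and Hhip, both cKO libraries lay above both wild-type libraries, an arrangement found in 17.2% of tested genes. In 0 of the 10 did both cKO libraries lie below, which 22.3% of tested genes did.

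cKO library A held the highest value of the 4 libraries for 6 of the 10 genes and the lowest for 2, and over all tested genes it was highest in 37.8% and lowest in 44.7%. It was also highest for 6 of the 8 Mueller glia markers and 8 of the 10 progenitor markers, whose part in the values of the 10 genes was not tested. Without cKO library B, limma called 5 of the 10. Those higher in cKO were Gas1 (log2 fold change 0.85, adjusted p = 0.000652), Smo (0.66, adjusted p = 0.00564), Gli2 (0.56, adjusted p = 0.0169) and Boc (0.74, adjusted p = 0.0407). Gli1 was lower (−0.62, adjusted p = 0.0136). In that fit 12.9% of all tested genes were called higher and 26.9% lower, and the single cKO library is taken to be as variable as the wild-type ones. Without cKO library A, 0 of the 10 were called, where 0.0138% of all tested genes were called higher and 0.359% lower, and the log2 fold changes of these 5 genes were 0.15 for Gas1, 0.05 for Smo, 0.04 for Gli2, 0.11 for Boc and 0.15 for Gli1. Without wild-type library A or B 0 of the 10 were called.

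**Figure D1:**
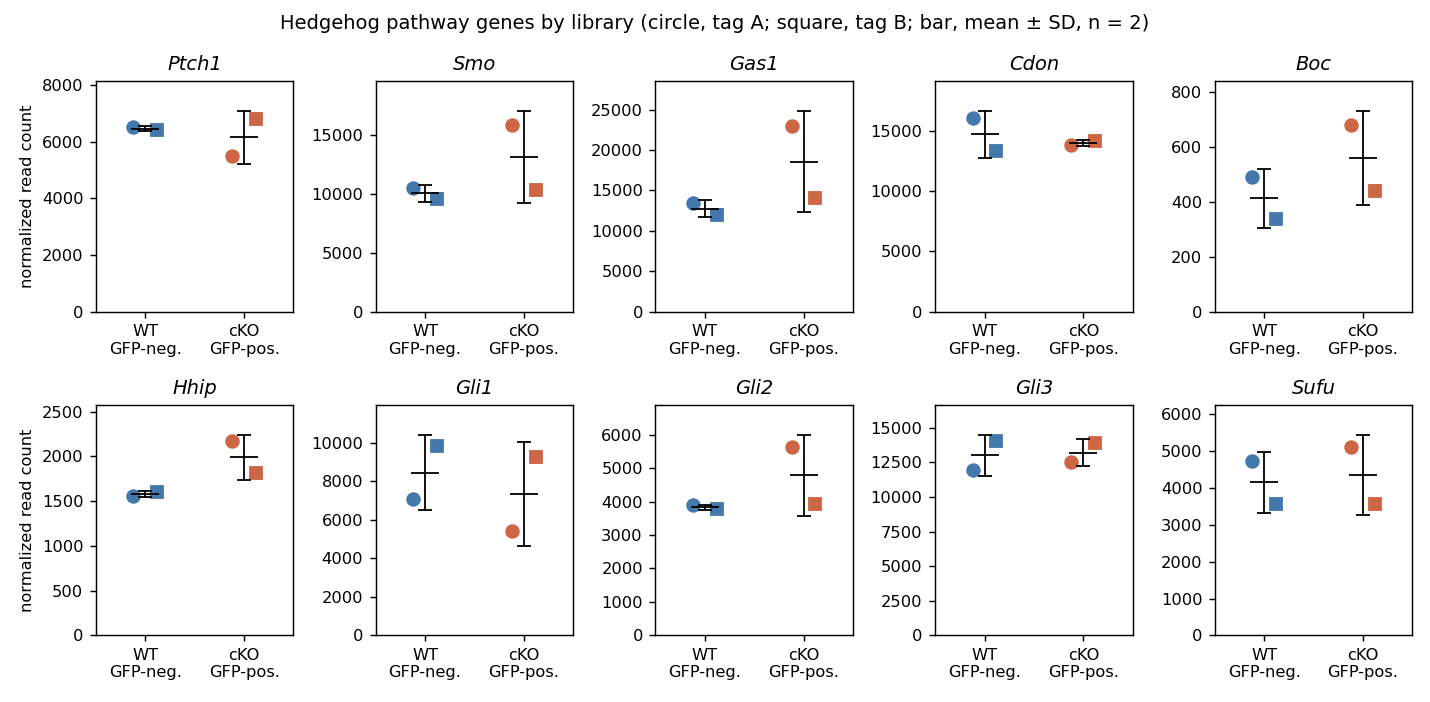
Normalized read counts (vertical axes, starting at 0) of the 10 Hedgehog pathway genes in each library, with circles for tag A, squares for tag B and bars for the mean ± SD (n = 2). Gas1, Gli2 and Hhip are the 3 panels where both cKO points lie above both wild-type points, and in 6 panels the circle of cKO is the highest point.

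Ptch1, the receptor that binds the ligand and is itself a target of the pathway (ENSMUSG00000021466, chromosome 13, 63508328 to 63573598 of GRCm38, minus strand), had 6513 and 6398 normalized reads in wild-type libraries A and B. In cKO libraries A and B it had 5488 and 6799.5, so the cKO values lay on both sides of the wild-type pair. Wild type averaged 6455 ± 81.7 (SD, n = 2) and cKO averaged 6144 ± 928 (SD, n = 2). The log2 fold change was −0.08 (standard error, SE, 0.19; limma, adjusted p = 0.880), and its 95% interval ran from 0.683-fold to 1.31-fold. Smo, the membrane protein that carries the signal inward (ENSMUSG00000001761, chromosome 6, 29735503 to 29761365, plus strand), had 10498 and 9529 in wild type and 15839 and 10336 in cKO. The high value was that of cKO library A alone, and cKO library B lay inside the wild-type range. Smo means were 10013 ± 686 (SD, n = 2) and 13088 ± 3891 (SD, n = 2), which gave a log2 fold change of 0.36 (SE 0.25; limma, adjusted p = 0.771) and an interval from 0.831-fold to 1.97-fold.

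Gas1, a membrane-anchored co-receptor (ENSMUSG00000052957, chromosome 13, 60174405 to 60177365, minus strand), had the largest log2 fold change of the 10. Its normalized read counts were 13465 and 12015 in wild type (A, B), against 22987 and 14119 in cKO (A, B). Both cKO values exceeded both wild-type values, that of library B by little. Wild type averaged 12740.4 ± 1025 (SD, n = 2) and cKO 18553 ± 6270.1 (SD, n = 2). For Gas1 the log2 fold change was 0.50 (SE 0.27; limma, adjusted p = 0.771), and the interval ran from 0.885-fold to 2.27-fold. Cdon, an immunoglobulin-family co-receptor (ENSMUSG00000038119, chromosome 9, 35421128 to 35507652, plus strand), had 16069 and 13332 in wild type and 13844 and 14168 in cKO. Both cKO values of Cdon lay between the wild-type values, with means of 14700.2 ± 1935 (SD, n = 2) and 14006 ± 228 (SD, n = 2). Its log2 fold change was −0.06 (SE 0.18; limma, adjusted p = 0.900), and the interval ran from 0.697-fold to 1.31-fold. Boc, the relative of Cdon in the same family (ENSMUSG00000022687, chromosome 16, 44485049 to 44558897, minus strand), was the least abundant of the 10 per kb of exon. Its normalized read counts were 488 and 336 in wild type and 679 and 438 in cKO. The Boc groups overlapped, with means of 412 ± 108 (SD, n = 2) and 558 ± 171 (SD, n = 2), and in each group the library of tag A was the higher one. Its log2 fold change was 0.43 (SE 0.35; limma, adjusted p = 0.771), and the wide interval reached from 0.733-fold to 2.47-fold. Within tags Boc was 0.48 higher at A and 0.38 higher at B on the log2 scale.

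Hhip, a membrane protein that binds and sequesters the ligand (ENSMUSG00000064325, chromosome 8, 79965851 to 80058006, minus strand), had 1553 and 1607 normalized reads in wild type (A, B), against 2168 and 1815 in cKO (A, B). The wild-type values lay close together and both cKO values lay above them. The means were 1580.1 ± 37.8 (SD, n = 2) and 1991 ± 249.9 (SD, n = 2), which gave a log2 fold change of 0.33 (SE 0.20; limma, adjusted p = 0.771). The interval ran from 0.891-fold to 1.77-fold. Without cKO library B the Hhip log2 fold change was 0.46 (limma, adjusted p = 0.0823). It was 0.20 without cKO library A.

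Gli1, a transcription factor that acts as an activator and whose own expression is the usual readout of the pathway (ENSMUSG00000025407, chromosome 10, 127329882 to 127341974, minus strand), had 7066 and 9830.2 normalized reads in wild-type libraries A and B. In cKO libraries A and B it had 5440.0 and 9259. In both groups the library of tag A was lower than that of tag B, by more than the groups differed. Wild type averaged 8448 ± 1955 (SD, n = 2) and cKO 7349 ± 2700.3 (SD, n = 2), and the log2 fold change was −0.23 (SE 0.32; limma, adjusted p = 0.803). Within tags the log2 difference of cKO minus wild type was −0.38 at A and −0.09 at B. The 95% interval for Gli1 ran from 0.493-fold to 1.47-fold. Without cKO library A the log2 fold change of Gli1 turned to 0.15, in a fit that sets 1 library of tag B against wild-type libraries of both tags.

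Gli2, the main activator of the family (ENSMUSG00000048402, chromosome 1, 118834132 to 119053619, minus strand), had 3881 and 3762 in wild type (A, B), against 5638 and 3932 in cKO (A, B). The groups did not overlap, but cKO library B stood only slightly above the wild-type pair. Its means were 3821 ± 84.4 (SD, n = 2) and 4785 ± 1207 (SD, n = 2), which gave a log2 fold change of 0.30 (SE 0.23; limma, adjusted p = 0.771). Gli3, which acts mainly as a repressor (ENSMUSG00000021318, chromosome 13, 15463235 to 15730026, plus strand), had 11947 and 14048 in wild type and 12517 and 13868 in cKO. Both cKO values of Gli3 fell between the wild-type values, with means of 12998 ± 1486 (SD, n = 2) and 13193 ± 955 (SD, n = 2). It had the smallest absolute log2 fold change of the 10, 0.02 (SE 0.18; limma, adjusted p = 0.964). Its interval ran from 0.740-fold to 1.40-fold. Sufu, which binds Gli proteins in the cytoplasm (ENSMUSG00000025231, chromosome 19, 46396896 to 46488804, plus strand), had 4725 and 3567 in wild type and 5116 and 3573 in cKO. As for Boc, tag A was higher than tag B in both groups, and the groups overlapped. Wild type averaged 4146 ± 819 (SD, n = 2) and cKO 4344 ± 1091 (SD, n = 2). For Sufu the log2 fold change was 0.06 (SE 0.26; limma, adjusted p = 0.936). Without cKO library A it was −0.20 and without cKO library B 0.32, neither called. Per GENCODE M21, exons of Gli1 overlap Arhgap9 on the other strand, and exons of Gli1, Gli3, Gas1 and Hhip overlap noncoding genes on the other strand. Since the sources used here do not give the strand setting of the counting, reads from these pairs cannot be told apart.

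**Figure D2:**
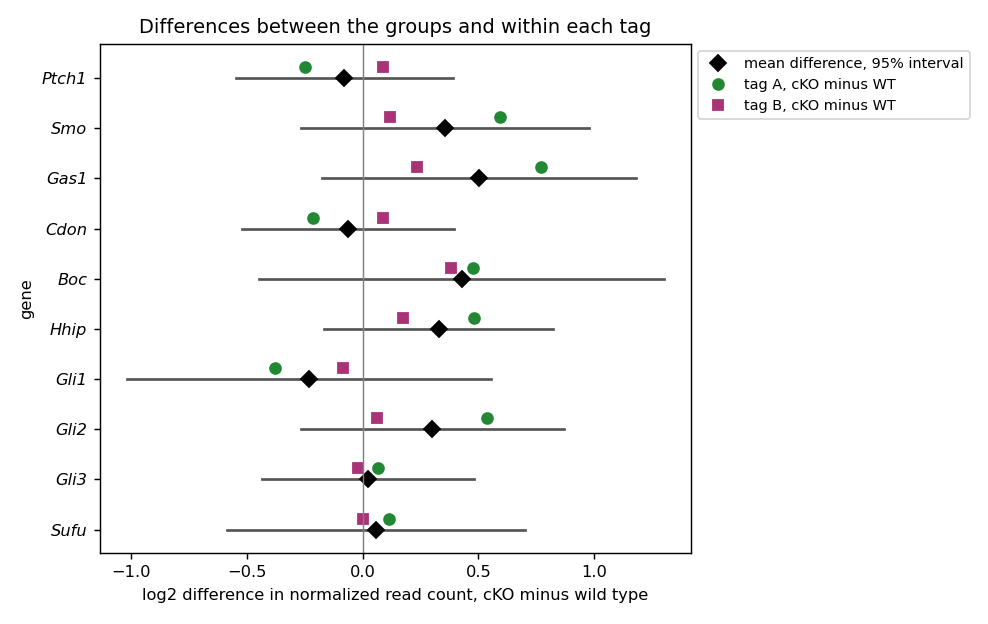
Log2 differences of normalized read count, cKO minus wild type (horizontal axis), for each of the 10 genes (vertical axis). Diamonds with lines are the limma estimate and its 95% interval, all of which include 0, and green circles and purple squares are the differences within tags A and B; Gas1 has the highest estimate, 0.50, and Gli1 the lowest, −0.23.

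Sequence upstream of the start site was compared for the members that RefSeq promoter windows on GRCm38.p6 covered, 8 of the 10 (Gli1 and Boc had no window). The search used the 250 bases before the start and both strands. The Gli consensus GACCACCCA was found in 0 of the 8 and in 0.225% of all 32851 windows of this length. Its core CCACCC, which the consensus contains, was found in 4 of the 8 (Gli2, Gli3, Hhip and Smo) and in 28.1% of all windows. The GC box GGGCGG, the element bound by Sp1, was found in 6 of the 8 and in 32.7% of all windows. GC content ran from 42.8% for Cdon to 78.4% for Ptch1, with a median of 67.8% over the 8 and 52.4% over all windows. The windows of Cdon (chr9:35451826-35452075) and Ptch1 (chr13:63565736-63565985) lie well inside the annotated genes, at internal starts. That of Gli3 (chr13:15463473-15463722) also lies inside its annotated gene, which starts at 15463235. None of these windows describes the sequence before the outer 5′ end of its gene. A match describes letters and is no evidence of binding, and Gli sites can lie outside such a window. The windows of the 3 genes whose groups did not overlap are shown so that their promoters can be compared. They lie at chr13:60177536-60177785 for Gas1, chr1:119053620-119053869 for Gli2 and chr8:80058009-80058258 for Hhip, each on the minus strand and written 5′ to 3′, with matches to CCACCC or GGGCGG on either strand in capitals.
Gas1: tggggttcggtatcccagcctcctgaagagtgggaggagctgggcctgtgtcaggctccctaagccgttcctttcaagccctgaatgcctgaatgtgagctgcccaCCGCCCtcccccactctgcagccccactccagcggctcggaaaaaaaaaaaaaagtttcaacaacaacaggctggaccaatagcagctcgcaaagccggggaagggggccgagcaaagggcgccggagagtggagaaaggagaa
Gli2: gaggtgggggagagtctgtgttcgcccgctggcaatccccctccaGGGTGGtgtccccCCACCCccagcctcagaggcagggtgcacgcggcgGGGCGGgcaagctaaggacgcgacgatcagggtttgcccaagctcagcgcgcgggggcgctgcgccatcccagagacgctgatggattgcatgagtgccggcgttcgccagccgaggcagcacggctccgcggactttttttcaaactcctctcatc
Hhip: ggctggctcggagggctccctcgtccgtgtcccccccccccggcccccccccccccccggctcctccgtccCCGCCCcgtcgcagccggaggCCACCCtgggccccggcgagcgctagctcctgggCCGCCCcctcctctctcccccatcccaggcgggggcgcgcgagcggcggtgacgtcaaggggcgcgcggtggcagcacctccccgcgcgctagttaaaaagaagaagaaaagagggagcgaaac

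The Gli2 window holds CCACCC once on each strand and a GC box, the Hhip window holds 1 CCACCC between 2 GC boxes, and the Gas1 window holds a GC box and no CCACCC. These 3 genes therefore do not share a CCACCC match, although each has a GC box. Ptch1, whose groups overlapped, also has a GC box and no CCACCC in its window, and Cdon has neither. Since the windows of Ptch1, Cdon and Gli3 lie inside their annotated genes, motifs at the outer starts of these genes were not examined.

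Levels of the genes were compared as normalized reads per kb of exon, over the merged exons of GENCODE M21. Gas1 was the most abundant, at 4548 and 4058 normalized reads per kb in wild type (A, B), against 7763 and 4768 in cKO (A, B). Its lowest library exceeded the highest library of the next gene, Smo. Smo, Cdon, Gli1 and Gli3 followed with means over the 4 libraries of 2055, 1860.4, 1581 and 1366 normalized reads per kb. The ranges of neighbours within these 4 genes overlapped, so their order was not fixed by the libraries. Gli2 (626), Sufu (552) and Ptch1 (444) formed a lower tier with overlapping neighbours, and its highest gene lay below every library of Gli3. Hhip (197) and Boc (109) came last, each separate from the gene above it. The length is that of all annotated exons of a gene, 14185 bases for Ptch1, and which transcripts were present was not analysed here.

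**Figure D3:**
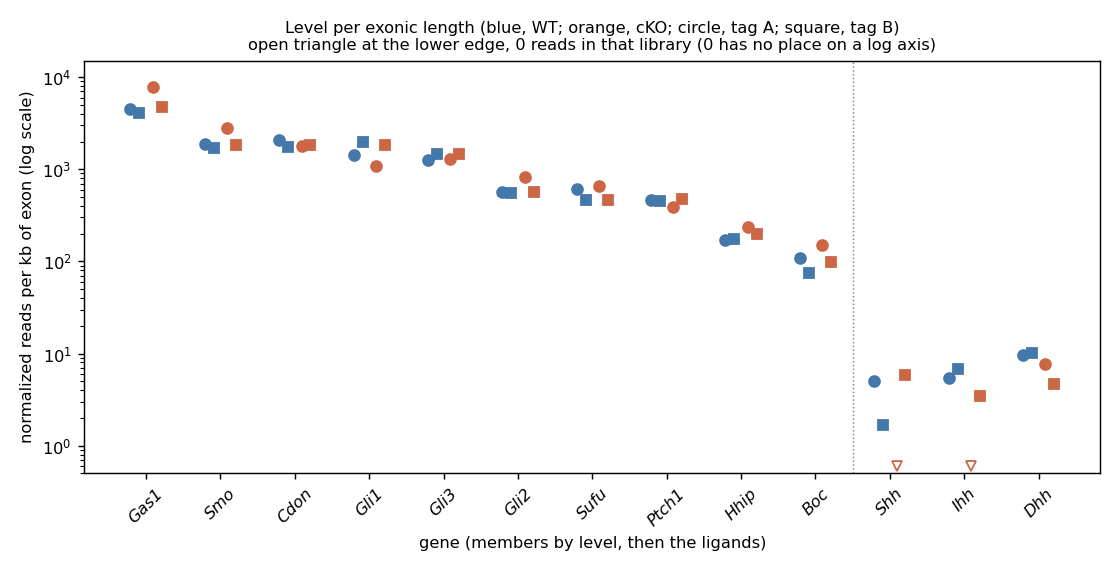
Normalized reads per kb of exon (vertical axis, log scale) in each library for the 10 members, ordered by mean, and for the 3 ligand genes. Gas1 lies highest and Boc lowest of the members, every ligand value lies below every member value, and open triangles mark cKO library A where Shh and Ihh had 0 reads.

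Ratios of 2 genes within a library do not depend on how the library was scaled, and 11 such ratios of levels per kb were computed as a description. They were not tested, and many share a gene. In 4 of them both cKO values lay above wild type; among single genes this held for 17.2% of those tested, and nothing is read from the count. Gas1 over Cdon was 2.18 and 2.35 in wild type (A, B), against 4.33 and 2.60 in cKO (A, B), higher in both cKO libraries. Gas1 over Ptch1 was 9.90 and 8.997 in wild type and 20.1 and 9.95 in cKO, where cKO library B only just exceeded the wild-type pair. Hhip over Ptch1 was 0.373 and 0.393 in wild type and 0.618 and 0.417 in cKO, where only cKO library A lay far from the wild-type pair. Boc over Cdon was 0.0527 and 0.0437 against 0.0850 and 0.0535. Among the Gli genes the groups overlapped in each ratio. Gli1 over Gli3 was 1.14 and 1.34 in wild type and 0.834 and 1.28 in cKO, and Gli1 over Gli2 was 2.50 and 3.59 against 1.33 and 3.24. Gli1 thus outnumbered Gli2 per kb in all 4 libraries, and outnumbered Gli3 in 3 of the 4, the exception being cKO library A.

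The wider pathway was read from 63 further genes in 7 role lists, of which 60 were tested. In limma 0 of the 60 passed over all genes (0.0% of all tested genes did). An unadjusted p under 0.05 was found for 1 of the 60, Pax2, and for 1.89% of all tested genes. The median log2 fold change of the 60 was −0.05, with 26 higher and 34 lower. In 11 of the 60 both cKO libraries lay above wild type and in 15 they lay below, against 17.2% and 22.3% of all tested genes. Without cKO library B limma called 16 of the 60, 4 higher and 12 lower, where 12.9% of all tested genes were called higher and 26.9% lower. Without cKO library A it called 1, Pax2, which was lower, as were 0.359% of all tested genes.

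The ligand genes were at the edge of detection in these sorted cells. Shh, the ligand of retinal ganglion cells, had 19 and 7 reads in wild type (A, B), against 0 and 25 in cKO (A, B), and its mean was too low for the test. A count of 0 in cKO library A allows up to 3 reads there, a normalized count of 8.38, which lies within the range of the other libraries, so no difference was detectable at this depth. Ihh had 22 and 30 reads in wild type and 0 and 16 in cKO, and Dhh had 56 and 64 against 12 and 31. In normalized counts Dhh had 42.5 and 44.2 in wild type and 33.5 and 20.5 in cKO, lower in both cKO libraries, with a log2 fold change of −0.70 (SE 0.87; limma, adjusted p = 0.790). Exons of Dhh overlap Rhebl1 on the same strand. Shh is a product of ganglion cells, whose markers had summed counts of 8914 to 15227 in these libraries; their part in the Shh reads was not tested. Of the 5 genes for ligand processing and release, 1 had a higher mean in cKO and 4 a lower one. Disp1, the membrane protein that releases lipid-modified ligand, had 905 and 846 in wild type and 930.4 and 848 in cKO, giving a log2 fold change of 0.02. Scube3, a secreted carrier protein of a family that helps release, had 6743 and 6441 in wild type and 4635 and 6179 in cKO. Each cKO value of Scube3 lay below wild type, with a log2 fold change of −0.30 (SE 0.21; limma, adjusted p = 0.771). Without cKO library B the log2 fold change of Scube3 was −0.51. Within tags the log2 difference was −0.54 at A and only −0.06 at B.

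Other receptors and surface proteins that bind the ligand had 3 of 5 tested members higher and a median log2 fold change of 0.26. Gpc3, a glypican that competes with Ptch1 for the ligand, had 3395 and 3256 in wild type (A, B), against 5745 and 3537 in cKO (A, B). Gpc6, another glypican, had 2955 and 3002 in wild type and 5172 and 3154 in cKO. For both glypicans the cKO values lay above the wild-type pair, with a log2 fold change of 0.44 each (limma, adjusted p = 0.771). Without cKO library B they were called higher, at 0.79 for Gpc3 (limma, adjusted p = 0.00106) and 0.80 for Gpc6 (adjusted p = 0.00105). Their log2 fold changes were 0.09 and 0.08 without cKO library A.

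Regulators of Smo and of entry into the cilium had 5 of 13 members higher and a median log2 fold change of −0.05. Gpr161, a ciliary receptor that restrains the pathway, had 1073 and 828 in wild type (A, B), against 1296 and 1118 in cKO (A, B). It was higher in cKO within both tags, by 0.27 at A and 0.43 at B, with a log2 fold change of 0.35 (SE 0.24; limma, adjusted p = 0.771). Mgrn1, an E3 ubiquitin ligase that lowers Smo at the membrane, had a log2 fold change of 0.12. Genes of Gli processing and degradation had 5 of 15 higher and a median of −0.06. Btrc, an F-box protein that marks Gli proteins for processing, had 6093 and 5812 in wild type and 3618 and 4962 in cKO. Both cKO values of Btrc lay below the wild-type pair, with a log2 fold change of −0.49 (SE 0.22; limma, adjusted p = 0.771). Ulk3, a kinase that acts on Gli proteins, had 1925 and 1912 in wild type and 743 and 1604 in cKO, giving a log2 fold change of −0.81 (SE 0.38; limma, adjusted p = 0.771). Without cKO library B both were called lower, Btrc at −0.72 (limma, adjusted p = 0.00239) and Ulk3 at −1.37 (adjusted p = 5.18e-06). Without cKO library A the values were −0.26 for both.

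Kif7, a ciliary kinesin that organises Gli proteins at the cilium tip, had 953 and 769.6 in wild type and 587 and 918 in cKO, with overlapping groups and a log2 fold change of −0.22. Exons of Kif7 overlap Ticrr and, over a longer stretch, the antisense gene 9330171B17Rik, both on the other strand and both counted in the table. Csnk1a1, a kinase that phosphorylates Gli proteins or Smo, had 0.09. Prkar1a, a regulatory subunit of another such kinase, had 0.23. Intraflagellar transport genes, which build the cilium, had 5 of 9 higher and a median of 0.05, with Kif3a, a motor subunit, at −0.09 and Ift80 at 0.08.

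Further genes reported as targets of the pathway had 7 of 11 tested members higher and a median log2 fold change of 0.12. Ccnd1, a G1 cyclin, had 235937 and 223698 in wild type (A, B), against 388895 and 253407 in cKO (A, B). Both cKO values of Ccnd1 lay above wild type, with a log2 fold change of 0.45 (SE 0.29; limma, adjusted p = 0.771); its exons overlap those of LTO1 on the other strand. Mycn, a transcription factor of proliferating precursors, had 9763 and 9404 in wild type and 7541 and 9652 in cKO, overlapping groups with a log2 fold change of −0.17. Foxm1, a transcription factor of the G2 and M phases whose exons overlap Tex52 on the same strand, had 0.17. Hes1, a repressor of neuronal differentiation that is also in the progenitor marker list, had 9841 and 12647 in wild type and 16803 and 14474 in cKO. The Hes1 groups did not overlap, with a log2 fold change of 0.48 (SE 0.21; limma, adjusted p = 0.771). With cKO library B left out Hes1 was called higher, at 0.59 (limma, adjusted p = 0.0172). With cKO library A left out it was not, at 0.38. Pax2, which is also an astrocyte marker, had 322 and 184 in wild type and 11.2 and 76.7 in cKO. Both cKO values of Pax2 lay well below the wild-type pair, with a log2 fold change of −2.99 (SE 0.98; limma, adjusted p = 0.771). Pax2 was called lower without cKO library A, at −1.65 (limma, adjusted p = 0.0377), and also when cKO library B was left out, at −4.33 (adjusted p = 3.17e-10). The astrocyte list, which holds Pax2, had lower summed counts in the same libraries, as given above.

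**Figure D4:**
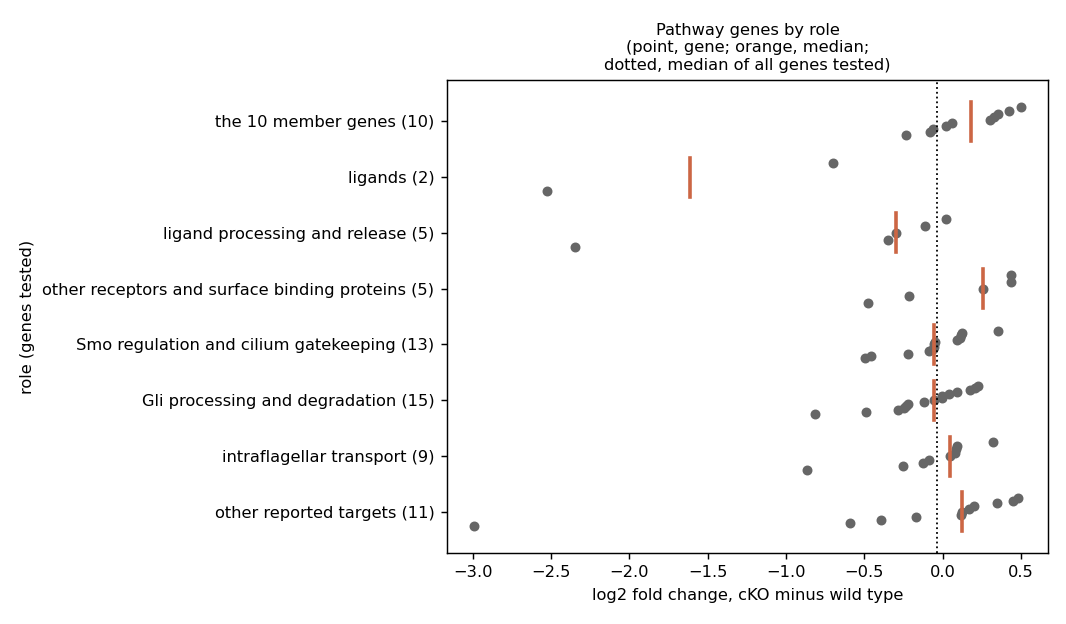
Log2 fold change of cKO over wild type (horizontal axis) for each tested gene (points) by role (vertical axis), with the median of each role in orange and that of all tested genes dotted. The medians of the roles lie between −0.30 and 0.26 except for the ligands; Ihh and Scube2 had 0 reads in cKO library A, so that the added 1 sets the size of their difference.

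Of the 10 genes, 0 had an adjusted p-value under 0.05 in the authors' deposited table, where all 10 stood at 1.00. The unadjusted p-values of the 10 in the authors' deposited table ran from 0.360 for Hhip to 0.855 for Cdon. Of the 63 wider pathway genes 1, Pax2, passed in the authors' deposited table, with an adjusted p-value of 0.0339. Over all genes 51 passed there, where 17477 genes had a p-value.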

How the data were processed

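The deposited table gives normalized counts, named so per the file headers: a signal that the authors made from the reads of each gene with 1 size factor for each library, as the values show. FastQC, TopHat, HTSeq, DESeq and the build mm10 are named per the submitters' processing notes. The sources used here do not give versions, annotation, strand setting or the authors' test behind the deposited p-values. All values (100%) were whole multiples of the value of 1 read within 0.01 reads, so reads were recovered. The first header line heads both cKO columns as replicate 2, so they were assigned to their group and named by tag.

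Genes with a mean of at least 10 were tested with limma 3.58.1 in R 4.3.3 on log2(normalized count + 1) with a mean-dependent prior, 2-sided, with Benjamini-Hochberg adjustment at 0.05. Fold changes and their 95% intervals are on this scale, which understates changes of low genes. edgeR 4.0.16 and DESeq2 1.42.0 were run on the recovered reads. The scripts were tested on simulated reads. Coordinates and exonic lengths are from GENCODE M21 on GRCm38, where 96.1% of identifiers were found.

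The member genes, role lists and marker lists were chosen with earlier results of these data known. All members are named. Of the wider pathway the named genes are 9 fixed by name, the 2 most abundant per role, and the 4 with the smallest p among those with a mean of at least 50 and no overlap between groups. Genes outside this rule (Scube2 and marker genes at 0) are named where a value turns on them. Results for some genes under this rule are not reported here. No gene was named for likeness of pattern, since 4 libraries are too few. Other pseudocounts, filters, a median rescaling, no mean-dependent prior, a block for tags and leaving out each library were tried.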

Additional observations from a re-analysis of the deposited data

How the results depend on the processing

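With pseudocounts of 0.5 and 5, no filter, a mean of at least 50, median rescaling, no mean-dependent prior, edgeR, DESeq2 and the block, 0 of the 10 genes and 0 of the wider pathway genes were called, and the 268 log2 fold changes of the 30 named genes tested kept their direction. Over all genes the count stayed at 0 except for DESeq2, which called 1, Nr2e3, lower. The replicate block used the column tags, which no label ties to an experiment; across genes the deviations of libraries that share a tag had a correlation of 0.258, and the block gave 0 called of the 10, with 1375 of all genes at an unadjusted p under 0.05. Leaving out each library in turn, the count called ranged from 0 to 5 of the 10, 0 to 16 of the wider pathway and 0 to 5768 of all genes, and the median of the 10 from 0.087 to 0.39. The highest of each came without cKO library B; the cause was not tested. Directions turned for some genes there, with log2 fold changes of −0.62 to 0.15 for Gli1, −0.093 to 0.14 for Gli3, −0.23 to 0.075 for Ptch1, −0.20 to 0.071 for Cdon and −0.20 to 0.32 for Sufu. The same held for Kif7 (−0.54 to 0.10), Mgrn1 (−0.12 to 0.36), Mycn (−0.35 to 0.011), Disp1 (−0.046 to 0.089), Ift80 (−0.043 to 0.20) and Foxm1 (−0.026 to 0.37). Gas1, Smo, Boc, Gli2 and Hhip were higher in cKO in every fit. Depth limits genes with few reads, the ligand genes among them, since 3 reads stand for a normalized count of 8.38 in cKO library A and 1.98 to 2.28 in the others, counting error only.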
